A study of Mus musculus with 4 samples.

Results

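The genes of gluconeogenesis, the urea cycle and amino acid metabolism were examined in the surface layers of the fetal mouse liver, with and without p57. The list held 42 genes for hepatic enzymes and transporters. A probe set counted if the platform annotation gave one of these genes as its only symbol and if it was called Present on 2 or more of the 4 arrays. This held for 57 of the 45101 probe sets, of which 54 were tested and 3 were control-named probe sets of pyruvate carboxylase. The tested probe sets covered 39 of the 42 genes, out of 11656 genes tested. Of the other 3 genes, 2 had no probe set of their own and were not analysed here, and the tyrosine aminotransferase gene Tat was called Absent on all 4 arrays.

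The tissue was the mesothelium, the sheet of cells that covers the liver, and the submesothelial cells beneath it. It was isolated surgically from C57BL/6 embryos at embryonic day 17.5. Of the 4 samples, 2 were p57-/-, labelled Kip2 -/-, and 2 were p57+/+ wild type, and the titles placed 1 of each genotype in experiment 1 and in experiment 2. The labels give no allele or driver beyond this and do not say whether a sample was 1 embryo or a pool. P-values therefore speak of the spread among these 4 samples alone, and part of that spread may be technical.

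Cdkn1c, the gene of p57, had signals of 7.79 and 7.28 in p57-/- tissue, both Absent, against 10255 and 9866 in p57+/+ tissue, at least 760-fold lower (limma adjusted p = 1.80e-08). No other gene of the 11656 passed the threshold in the fit without a block. Xist and the Y-linked gene Eif2s3y were both Present on each p57-/- array. In p57+/+ tissue, replicate 1 had Xist with Eif2s3y Absent, and replicate 2 had Eif2s3y with 2 of 3 Xist probe sets Absent. Each p57-/- sample thus held sex-linked transcripts of both sexes. The 2 p57+/+ samples differed from each other in them, along with the experiment number. The part of sex in the genotype differences was not tested. All 11 mesothelial marker genes passed the filter, and so did all 13 hepatocyte marker genes that the platform named. The summed hepatocyte signal was 567089 and 547836 in p57-/- tissue and 492190 and 597188 in p57+/+ tissue, so the samples held hepatocyte RNA. Because the samples are mixtures, fewer cells of a type and less RNA per cell cannot be told apart.

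Gluconeogenesis makes glucose from lactate, glycerol and amino acid carbon, and the urea cycle turns the ammonia released by amino acid breakdown into urea. Both are hallmarks of hepatocytes, and many of their genes switch on only around or after birth, when the placenta no longer supplies glucose and clears ammonia. Growing fetal cells also make serine and asparagine for protein and nucleotide synthesis.

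No gene of the list passed the threshold of an adjusted p of 0.05 in limma, 0 higher and 0 lower, beside 0% higher and 0.00858% lower of all tested genes. With the experiment as a block, which the sample titles allow, 0 were higher and 1, Hao1, lower, beside 0.0686% and 0.129% of all tested genes. At an unadjusted p under 0.05 without the block there were 3 higher, the genes Pcx, Fah and Psat1, and 1 lower, Hao1, beside 4.70% and 4.07% of all tested genes. Each p57-/- array was also set against the p57+/+ array of its own experiment. Of the 39 genes, 14 were higher in both experiments (35.9%, beside 29.6% of all tested genes) and 9 were lower in both (23.1%, beside 26.7%). The remaining 16 went opposite ways (41.0%, beside 43.7%). The signals of the 2 genotypes did not overlap for 11 genes higher in p57-/- tissue (28.2%, beside 21.7%) and for 7 lower (17.9%, beside 19.0%). No gene differed by 2-fold or more in both experiments, where 0.137% of all tested genes were higher and 0.266% lower by that much. These shares lie near those of all genes. The median log2 difference, p57-/- minus p57+/+, was 0.05 over the list and 0.02 over all tested genes.

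The differences were small for most of the list. For 29 of the 39 genes the log2 difference was within 0.3 of 0. That held for a similar share of all tested genes, 8713 of 11656. For 35 of the 39 the unadjusted 95% confidence interval lay within a 2-fold change either way, a count not made over all tested genes. The 2 experiments were not alike. In experiment 1 the median was 0.15 and 26 of 39 genes were higher in p57-/- tissue (66.7%, beside 53.7% of all tested genes). In experiment 2 the median was -0.01 and 18 were higher (46.2%, beside 49.2%). The hepatocyte markers moved with them, with medians of 0.20 in experiment 1 and -0.15 in experiment 2, and their part in the list's medians was not tested. The median of the list was -0.03 without p57-/- replicate 1. Across the 39 genes, which share the arrays and are not independent replicates, Pearson's r between the differences of experiment 1 and experiment 2 was 0.307. It was 0.144 without Hao1 and 0.185 over all tested genes.

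**Figure D1:**
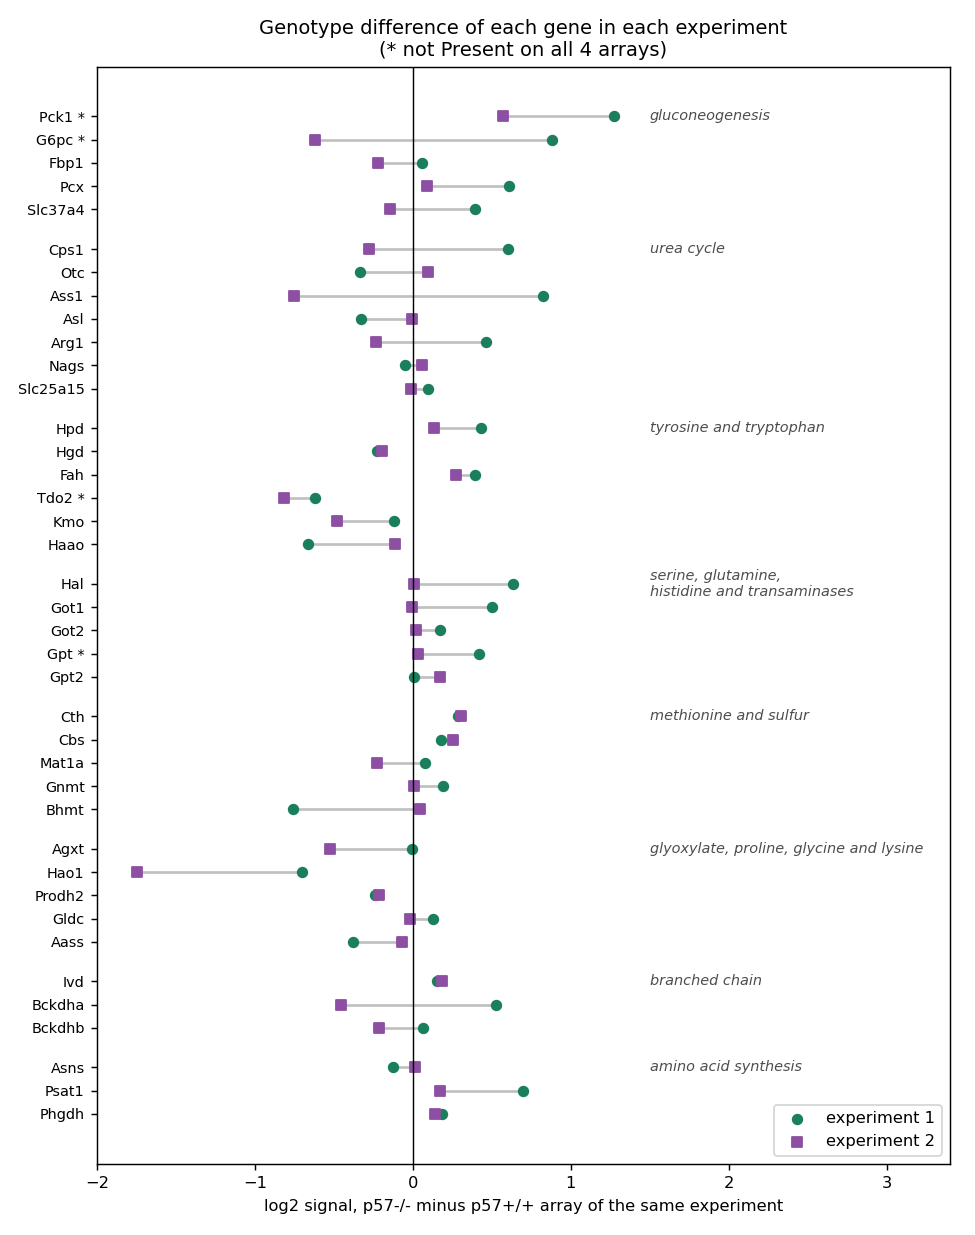
Genotype difference of each of the 39 genes in experiment 1 (circles) and experiment 2 (squares), as log2 signal of the p57-/- array minus that of the p57+/+ array, grouped by role. Asterisks mark the 4 genes whose probe set was not Present on all 4 arrays. The 16 genes with symbols on both sides of 0 include 6 of the 7 urea cycle genes, and Hao1 lies farthest to the left.

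The largest difference among genes Present on all 4 arrays was that of Hao1, which encodes the peroxisomal glycolate oxidase that makes glyoxylate. Its single probe set gave 717 and 351 in p57-/- tissue and 1167 and 1178 in p57+/+ tissue. Both p57-/- arrays lay below both p57+/+ arrays. The mean was 534 ± 259 in p57-/- tissue and 1173 ± 7.55 in p57+/+ tissue (SD, n = 2 each). The log2 difference was -1.23 (SE 0.28), or 0.428-fold, and did not pass (limma adjusted p = 0.519). With the experiment as a block it passed (SE 0.21, limma adjusted p = 0.0254). The p57+/+ arrays were nearly equal, and over the tested probe sets the deviations of same-numbered arrays had a correlation of 0.00460. The block thus had little shared spread to remove here, and its smaller SE leans more on the spread of other probe sets. The Hao1 log2 difference was the same in both fits. It was -0.70 in experiment 1 and -1.75 in experiment 2. Without p57-/- replicate 1 it was -1.74 and without p57-/- replicate 2 it was -0.71, each with a lone p57-/- array. With all 4 arrays and no block, the limma adjusted p of Hao1 ran from 0.437 to 0.776 over the alternatives.

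Of the genes grouped with Hao1, Agxt, Prodh2 and Aass had smaller differences in the same direction, and Gldc did not. Agxt encodes the aminotransferase that turns glyoxylate into glycine, and its defect causes primary hyperoxaluria in humans. It gave 778 and 491 in p57-/- tissue and 781 and 708 in p57+/+ tissue, with replicate 1 of both genotypes almost equal. Prodh2, whose product starts the breakdown of hydroxyproline, an amino acid of collagen, gave 1786 and 2075 in p57-/- tissue, against 2106 and 2407 in p57+/+ tissue. Its groups did not overlap, and the difference was alike in both experiments, -0.24 and -0.21. Aass, of the first steps of lysine breakdown, gave 2177 and 2435 in p57-/- tissue and 2832 and 2556 in p57+/+ tissue, a log2 difference of -0.22 (SE 0.13). Gldc, of the glycine cleavage system, was at 0.05 (SE 0.13). Adjusted p for these 4 genes ran from 0.705 for Aass to 0.936 for Gldc. Grhpr, which encodes the reductase that clears glyoxylate, is not of the list and went the other way, with 9895 and 6711 in p57-/- tissue and 6139 and 6313 in p57+/+ tissue (log2 difference 0.39, SE 0.17, adjusted p = 0.642).

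The 3 genes of serine and asparagine synthesis divided between those with higher signal in p57-/- tissue and one without. Psat1 encodes phosphoserine aminotransferase, the second step of serine synthesis. Its brighter probe set gave 20499.5 and 14658 in p57-/- tissue, against 12627.5 and 13030.4 in p57+/+ tissue, and the other gave 9896 and 6841 against 6076 and 4479.7. The groups did not overlap with either probe set. The log2 differences were 0.43 (SE 0.15, adjusted p = 0.578) and 0.66 (SE 0.19, adjusted p = 0.549), and with the brighter probe set the difference was 0.70 in experiment 1 and 0.17 in experiment 2.

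Phgdh encodes phosphoglycerate dehydrogenase, which starts the same pathway, and its per-array values, like those of Asns, were chosen for display after they were seen. All 4 of its tested probe sets were higher on both p57-/- arrays than on both p57+/+ arrays. The brightest gave 8202 and 8599 in p57-/- tissue and 7234 and 7799 in p57+/+ tissue. The probe set with the largest difference gave 6358 and 6142 against 4598 and 4913. Log2 differences ran from 0.13 (SE 0.13) to 0.39 (SE 0.11), with adjusted p of 0.549 or more. These probe sets share a gene and arrays and are not replicates. Each carries the x suffix by which the manufacturer marks probes that may also bind other transcripts, as does the second probe set of Asns. Asns encodes asparagine synthetase. It gave 8976 and 9329.6 in p57-/- tissue and 9779 and 9245 in p57+/+ tissue, overlapping, with a log2 difference of -0.06 and an unadjusted 95% interval of -0.30 to 0.19, and its second probe set was at -0.03 (SE 0.12).

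**Figure D2:**
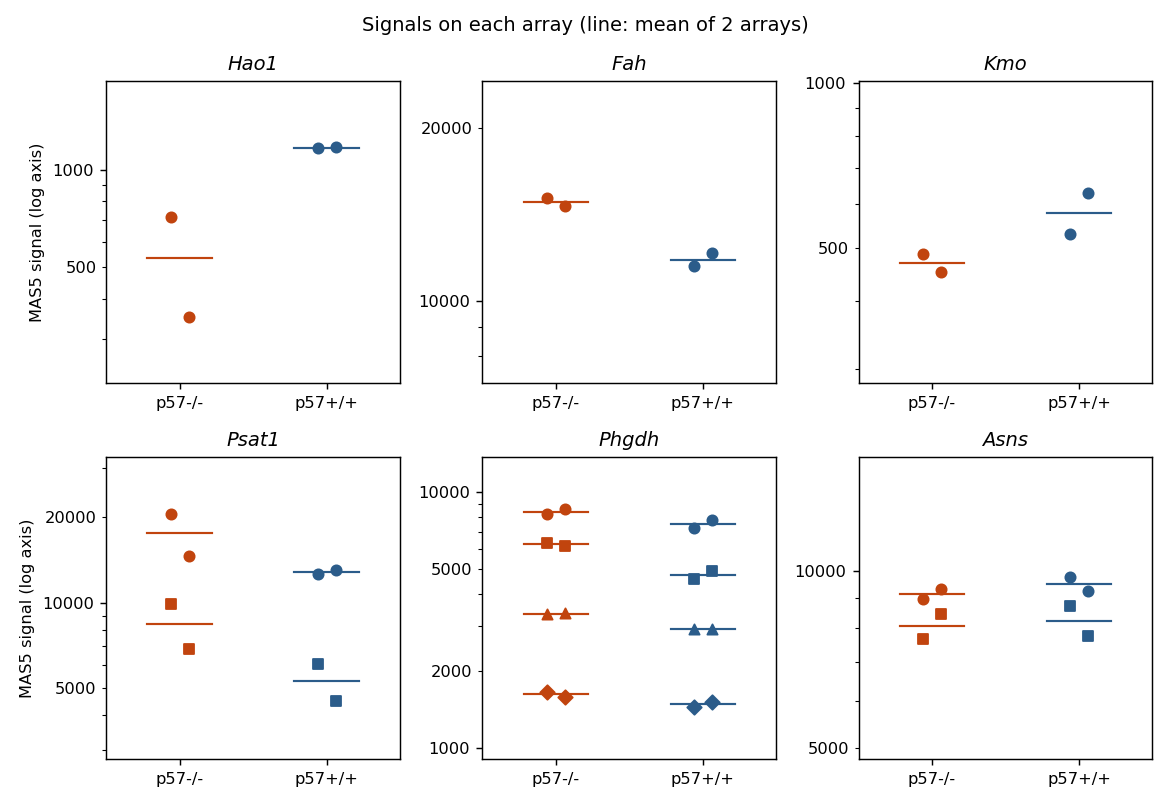
MAS5 signals on a log axis for each tested probe set of 6 genes, with p57-/- arrays on the left and p57+/+ arrays on the right. Points are arrays, marker shapes are probe sets of one gene, and lines are means of 2 arrays. Hao1 and Kmo lie lower and Fah, Psat1 and Phgdh higher on both p57-/- arrays, while Asns overlaps; of the 6 genes only Hao1 passed, and only with the experiment as a block.

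The promoter sequences of the gene with the largest difference and of the 3 synthesis genes are shown because Asns, Phgdh and Psat1 are known targets of the amino acid response factor ATF4 and Hao1 is a hepatocyte gene. Each is the 250 bases before the RefSeq start of transcription in build GRCm38.p6, read 5′ to 3′ on the gene's own strand, which is the minus strand for all of them. Capitals mark matches on either strand to motifs chosen after the values were seen. These were TGATGNAA, the core that ATF4 and C/EBP factors share, TGNACTTTG, a form of the HNF4 site, the CCAAT box and the TATA box TATAAA.
Hao1, chr2:134554353-134554602: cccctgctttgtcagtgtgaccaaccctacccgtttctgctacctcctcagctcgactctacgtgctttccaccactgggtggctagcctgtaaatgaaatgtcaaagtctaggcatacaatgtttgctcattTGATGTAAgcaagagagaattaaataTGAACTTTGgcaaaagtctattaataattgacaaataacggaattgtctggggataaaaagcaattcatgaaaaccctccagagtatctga
Psat1, chr19:15925060-15925309: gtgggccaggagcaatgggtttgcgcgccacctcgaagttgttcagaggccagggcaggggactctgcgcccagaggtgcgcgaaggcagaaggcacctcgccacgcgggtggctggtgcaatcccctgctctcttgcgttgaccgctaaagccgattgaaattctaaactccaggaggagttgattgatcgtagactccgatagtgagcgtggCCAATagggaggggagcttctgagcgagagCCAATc
Phgdh, chr3:98339970-98340219: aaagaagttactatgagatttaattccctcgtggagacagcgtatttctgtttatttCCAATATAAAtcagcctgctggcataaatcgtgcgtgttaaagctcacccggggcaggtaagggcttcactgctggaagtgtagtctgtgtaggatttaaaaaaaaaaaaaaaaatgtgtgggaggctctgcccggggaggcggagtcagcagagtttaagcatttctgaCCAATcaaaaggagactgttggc
Asns, chr6:7693210-7693459: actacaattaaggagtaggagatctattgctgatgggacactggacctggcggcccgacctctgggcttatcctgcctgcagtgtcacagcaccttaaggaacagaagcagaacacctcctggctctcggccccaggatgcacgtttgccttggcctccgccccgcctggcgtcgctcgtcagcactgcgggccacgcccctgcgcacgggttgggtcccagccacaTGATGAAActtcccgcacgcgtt

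The Asns window held TGATGAAA at bases -23 to -16, and the Hao1 window TGATGTAA at -117 to -110. Neither the Psat1 nor the Phgdh window shown held this motif. A match was found in 3.45% of all 32851 RefSeq windows of this length and in 4 of the 40 windows of the list's genes. Hao1 also held TGAACTTTG at -91 to -83, a motif in 1.19% of all windows and in no other window of the list. Psat1 and Phgdh each had a pair of CCAAT boxes, which 33.8% of all windows had at least once, and in Phgdh the distal one overlapped by 1 base a TATAAA match, found in 12.4%. Of the 42 genes, 34 had a window, and Psat1 has a second start whose window held none of these motifs. A match describes the letters and shows no binding.

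Tyrosine and tryptophan breakdown share the ring-opening chemistry of aromatic amino acids. In the tyrosine pathway, Hpd and Fah were higher and Hgd lower in both experiments. Fah encodes fumarylacetoacetase, the last step, whose loss causes tyrosinaemia type I in humans. It gave 15112 and 14632 in p57-/- tissue and 11491 and 12119 in p57+/+ tissue, apart and steady within each genotype. The log2 difference was 0.33 (SE 0.11, adjusted p = 0.549), with 0.40 in experiment 1 and 0.27 in experiment 2. Hpd, of the second step, gave 13275 and 10480.5 in p57-/- tissue, against 9859 and 9569 in p57+/+ tissue (0.28, SE 0.13, adjusted p = 0.653). Hgd, which opens the ring between them, gave 3589.5 and 3633 in p57-/- tissue and 4212 and 4167 in p57+/+ tissue (-0.21, SE 0.12, adjusted p = 0.683). The genotypes were apart in all of these genes, by less than 1.3-fold.

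The 3 genes listed from the kynurenine route of tryptophan, Tdo2, Kmo and Haao, were lower in both experiments, as 26.7% of all tested genes were. Of 4 more genes of the route on a wider list, Afmid was at -0.29, Kynu at -0.23, Aadat at -0.07 and Qprt at -0.07, and Kynu went opposite ways in the 2 experiments. Tdo2 encodes the enzyme that opens the tryptophan ring in hepatocytes and was close to the detection limit. It gave 35.3, called Absent, and 32.5 in p57-/- tissue and 54.3 and 57.3 in p57+/+ tissue, a log2 difference of -0.72 (SE 0.50). Kmo encodes kynurenine monooxygenase and gave 486 and 452 in p57-/- tissue, against 529 and 630.0 in p57+/+ tissue (-0.30, SE 0.18). Haao, downstream of Kmo on the way to NAD, gave 1308 and 2338 in p57-/- tissue and 2078 and 2532 in p57+/+ tissue, where the lowest value was p57-/- replicate 1 and the groups overlapped. Its log2 difference was -0.39 (SE 0.24). Tdo2, Kmo and Haao did not pass, with adjusted p of 0.707 to 0.750. Haao was at -0.81 without p57-/- replicate 2 and at 0.03 without p57-/- replicate 1, each with a lone p57-/- array.

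The enzymes that commit carbon to glucose were detected unevenly. Pck1 encodes the cytosolic phosphoenolpyruvate carboxykinase, the classic control point of gluconeogenesis. It gave 169 and 16.8 in p57-/- tissue and 69.8 and 11.3 in p57+/+ tissue, Present in experiment 1 and Absent in experiment 2 in both genotypes. G6pc, the catalytic subunit of glucose-6-phosphatase, likewise gave 492 and 71.4, the second Absent, in p57-/- tissue and 267 and 109.6 in p57+/+ tissue. For both genes experiment 1 was above experiment 2 whatever the genotype, so the log2 differences of 0.92 (SE 1.12) and 0.13 (SE 0.75) lie within that spread. The other 2 Pck1 probe sets were Present on no array.

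The remaining gluconeogenic genes were bright on every array. Fbp1, fructose-1,6-bisphosphatase, gave 31074 and 29854 in p57-/- tissue and 29907 and 34840.4 in p57+/+ tissue. These are 43.3% to 48.3% of the highest signal on the array, the highest of the list, and no gene of it reached 0.5 of that signal on every array. Pcx encodes pyruvate carboxylase, the first step from pyruvate. It gave 5433 and 4604 in p57-/- tissue, against 3560.1 and 4324 in p57+/+ tissue, apart but by more in experiment 1 (0.61) than in experiment 2 (0.09). Its log2 difference was 0.35 (SE 0.14, adjusted p = 0.631). The control-named probe set at the 3′ end of the same transcript gave 4074 and 3370.5 in p57-/- tissue and 2912 and 3566 in p57+/+ tissue, which overlapped. The control at the 5′ end gave 105 to 148 on the 4 arrays and was Present only in replicate 1 of each genotype. Slc37a4, the transporter that brings glucose-6-phosphate to G6pc, was at 0.12 (SE 0.15).

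The urea cycle genes gave no common direction. Cps1 encodes the mitochondrial carbamoyl phosphate synthetase that admits ammonia to the cycle. It gave 27351 and 17061 in p57-/- tissue and 18003 and 20697 in p57+/+ tissue, with p57-/- replicate 1 above the other 3 arrays. Arg1, the arginase that releases urea, also had p57-/- replicate 1 highest and p57-/- replicate 2 lowest, with 10897.5 and 6424 in p57-/- tissue, against 7919 and 7555 in p57+/+ tissue. Of the 7 tested genes, 6 went opposite ways in the 2 experiments and 1, Asl, was lower in both (-0.33 and -0.01). Asl gave 1537 and 1694 in p57-/- tissue and 1931 and 1704 in p57+/+ tissue, apart but narrowly. Over the 7 genes the log2 differences ran from -0.17 to 0.16 with adjusted p of 0.785 or more. Otc, which joins carbamoyl phosphate to ornithine, was at -0.12 (SE 0.15) with its brightest probe set and at -0.23 and -0.06 with its other 2. Nags, whose product makes the activator of Cps1, was at 0.00 (SE 0.18), and Slc25a15, the ornithine carrier, at 0.04 (SE 0.12) with its brighter probe set. Its dimmer one was at 0.34 (SE 0.35), with 1.14 in experiment 1 and -0.47 in experiment 2. Ass1, the argininosuccinate synthetase, was read by a dim probe set only, with 188 and 109.8 in p57-/- tissue and 106 and 185 in p57+/+ tissue, and its other probe set carries a second symbol and was not used here.

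Aspartate and alanine pass their nitrogen on through transaminases, and these genes had small differences. Got2, the mitochondrial aspartate aminotransferase, gave 16810.2 and 16215 in p57-/- tissue and 14924 and 16023 in p57+/+ tissue, a log2 difference of 0.09 (SE 0.11), and its other 2 probe sets were at 0.13 and -0.18. Its cytosolic partner Got1 was at 0.25 (SE 0.19), with 0.50 in experiment 1 and -0.01 in experiment 2. Gpt, the alanine aminotransferase, gave 384 and 321 in p57-/- tissue and 287 and 313 in p57+/+ tissue, the last called Marginal. Its second probe set gave 147 and 184 in p57-/- tissue and 93.4 and 148, both Absent, in p57+/+ tissue, which overlapped (adjusted p = 0.739). Gpt2, the mitochondrial form, had 4 tested probe sets that disagreed, at 0.09 for the brightest and -0.53 (SE 0.25) for the dimmest. Hal, the histidine ammonia-lyase, gave 754 and 496 in p57-/- tissue and 487 and 493 in p57+/+ tissue, where only p57-/- replicate 1 stood clear.

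Among the genes of methionine and sulfur amino acids, the pair that makes cysteine from homocysteine was higher in both experiments. Cth, cystathionine gamma-lyase, gave 10521 and 8690.0 in p57-/- tissue and 8629 and 7042 in p57+/+ tissue, with differences of 0.29 and 0.30 in experiments 1 and 2. Cbs, cystathionine beta-synthase, gave 1453 and 1708 in p57-/- tissue, against 1282 and 1433 in p57+/+ tissue, with differences of 0.18 and 0.25. Both pairs of groups were apart, narrowly, and neither passed (adjusted p = 0.653 for Cth and 0.749 for Cbs). Bhmt, which returns homocysteine to methionine with betaine, gave 8826 and 14022 in p57-/- tissue and 14965 and 13571 in p57+/+ tissue. Only p57-/- replicate 1 was low, and the log2 difference was -0.36 (SE 0.19). Mat1a and Gnmt, which make and use S-adenosylmethionine, were at -0.07 (SE 0.13) and 0.10 (SE 0.12).

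The branched-chain genes showed no shared difference. Ivd, isovaleryl-CoA dehydrogenase of leucine breakdown, gave 1623 and 1569 in p57-/- tissue and 1464 and 1383 in p57+/+ tissue, apart with this probe set and overlapping with its other one. Bckdha and Bckdhb encode the 2 chains of the branched-chain ketoacid decarboxylase. Bckdha gave 1502 and 1048 in p57-/- tissue, against 1042 and 1438 in p57+/+ tissue, in opposite directions in the 2 experiments. Bckdhb gave 2378 and 1975 in p57-/- tissue, against 2280.25 and 2288 in p57+/+ tissue. Adjusted p for the 3 genes ran from 0.781 to 0.976.

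**Figure D3:**
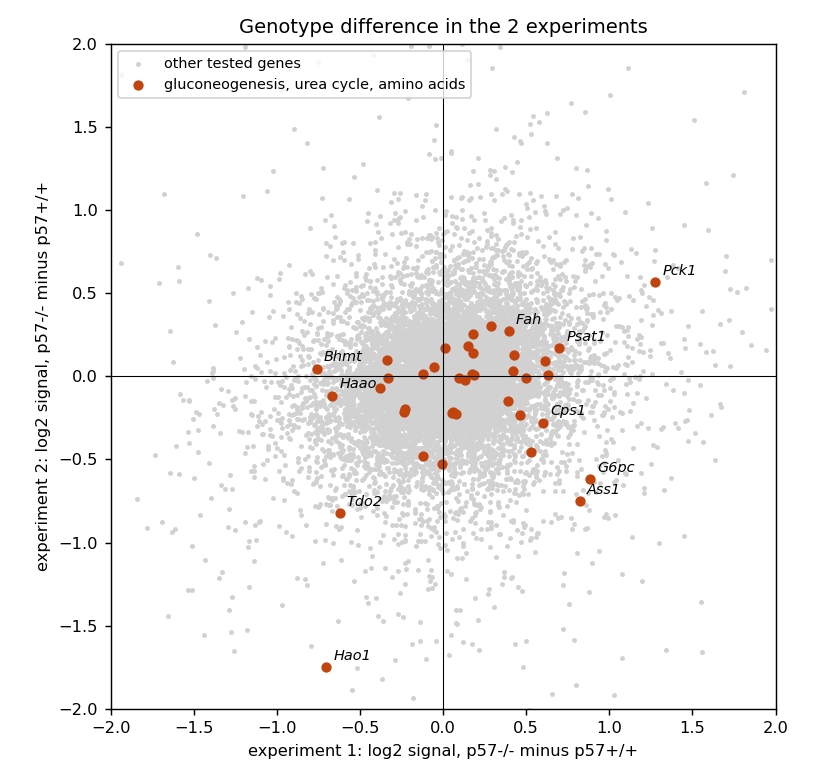
Log2 difference of p57-/- minus p57+/+ signal in experiment 1 (horizontal) and experiment 2 (vertical) for the 39 genes of the list (coloured) over all tested genes (grey); 123 tested genes lie beyond the axis limits of 2. The genes of the list spread about 0 like the grey cloud, with Hao1 at the lower edge.

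The other genes around these pathways were taken from 4 wider lists, and none of their members passed without the block. The first list had 27 tested genes of gluconeogenesis and its control. Of these, 14 were higher and 5 lower in both experiments, beside 29.6% and 26.7% of all tested genes. Their median log2 difference was 0.18, with 0.29 in experiment 1 and 0.05 in experiment 2. Pdk4 encodes a kinase that spares pyruvate from oxidation and gave 1436 and 988 in p57-/- tissue and 728 and 539 in p57+/+ tissue (0.93, SE 0.22, adjusted p = 0.519). It passed with the experiment as a block (adjusted p = 0.0385). Both p57-/- arrays were above both p57+/+ arrays. Ppargc1a, a coactivator of gluconeogenic genes, gave 1058 and 759 in p57-/- tissue and 668 and 517 in p57+/+ tissue (0.61, SE 0.21, adjusted p = 0.573). Irs2, an insulin receptor substrate, gave 696 and 593 against 425 and 414 (0.61, SE 0.17, adjusted p = 0.549). Of those lower in both experiments, the farthest from 0 was Gpd1, the cytosolic glycerol-3-phosphate dehydrogenase, at -0.37 (SE 0.21).

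Ammonia and arginine handling outside the cycle added 13 tested genes, with a median of 0.11. Of these, 6 were higher and 3 lower in both experiments, beside 29.6% and 26.7% of all tested genes. Slc7a2, which carries arginine and other cationic amino acids into cells, gave 6849.9 and 5053 in p57-/- tissue and 3755 and 3875 in p57+/+ tissue, clearly apart (0.63, SE 0.15, adjusted p = 0.519). Arg2, the mitochondrial arginase, gave 149.8 and 82.3 in p57-/- tissue, against 43.0 and 68.3 in p57+/+ tissue. Odc1, which uses ornithine for polyamines, was lower at -0.42 (SE 0.15, adjusted p = 0.581). Of 41 further genes of amino acid breakdown, 18 were higher and 11 lower in both experiments, beside the same 29.6% and 26.7%. Their median was 0.03. The valine enzyme gene Hibadh was at 0.45 (SE 0.12) and the cysteine dioxygenase gene Cdo1 at 0.45 (SE 0.12), while Mpst, another gene of cysteine breakdown, was at -0.31 (SE 0.14).

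Amino acid uptake and the ATF4 response did not share one direction with Psat1 and Phgdh. Of 29 tested genes, 8 were higher and 11 lower in both experiments, beside 29.6% and 26.7% of all tested genes. The median over the 29 was 0.05. Slc7a5, which imports large neutral amino acids, gave 1024 and 1407 in p57-/- tissue and 2130.0 and 1883 in p57+/+ tissue, apart in the downward direction (-0.74, SE 0.17, adjusted p = 0.519). Mthfd2, of mitochondrial folate metabolism, gave 852 and 891 in p57-/- tissue, against 1321 and 1098 in p57+/+ tissue (-0.47, SE 0.16). Trib3 and Atf3, both induced by amino acid stress, were at 0.83 (SE 0.37) and 0.77 (SE 0.27), each Absent on the array of p57+/+ replicate 2. On these lists the brightest tested probe set stood for each gene.

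**Figure D4:**
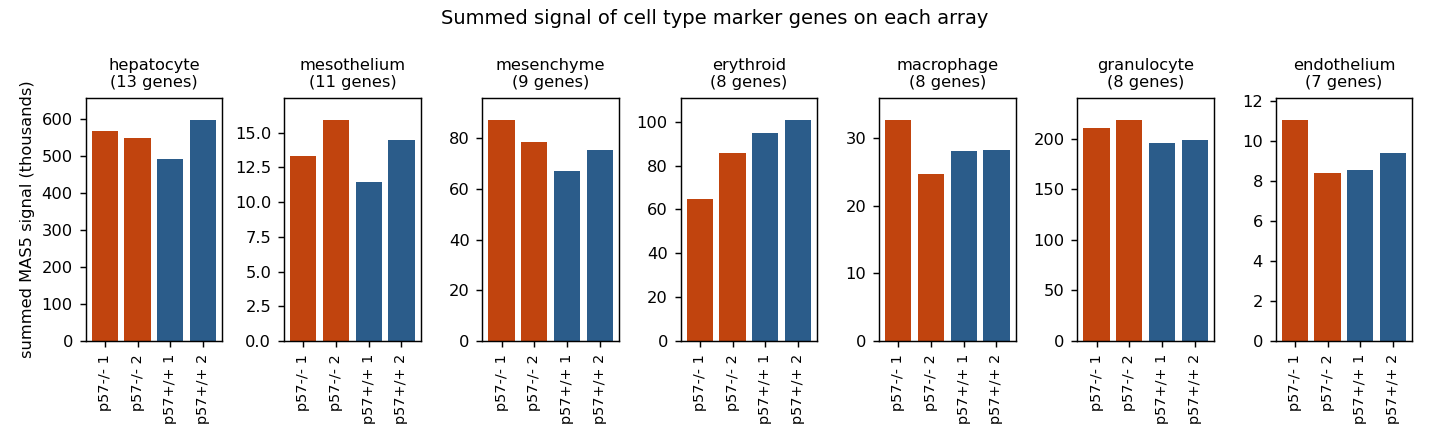
Summed MAS5 signal of the tested marker genes of 7 cell types on each array, on an axis scaled by 1000, with p57-/- arrays left of p57+/+ arrays. The hepatocyte sum was lowest in p57+/+ replicate 1, at 492190, and the erythroid sum was lower on both p57-/- arrays, at 64943 and 85782, than on the p57+/+ arrays, at 94929 and 100752.

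Cell type markers varied between the arrays beside these genes. The 13 hepatocyte markers had 2 members higher and 0 lower in both experiments, beside 29.6% and 26.7% of all tested genes. Of these markers, 11 were above 25% of the array's highest signal on all arrays. The other 2 were Hnf4a, a hepatocyte transcription factor, at 4438 and 3992 in p57-/- tissue and 3775 and 3896 in p57+/+ tissue, and Apoc3, at 2792 and 903 against 1109.7 and 1450.4. Hnf4a was apart and Apoc3 overlapped. The 8 tested erythroid markers were all lower in both experiments, as 26.7% of all tested genes were, with a median of -0.51. The 11 mesothelial markers had a median of 0.07. Of the kidney, gut and adrenal markers 6 of 12 passed the filter, and Umod, Cdx2 and Star did not. The part of these cell types in the differences of single enzymes was not tested.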

How the data were processed

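Each of the 4 samples was read on 1 single-colour Affymetrix array after labelling of cRNA from 250 ng of total RNA, per the labels' protocols. The authors deposited MAS5 signal, an intensity on a linear scale, per the submitters' processing notes and the headers of the files. They also deposited a detection p-value and call for each probe set, per the file headers. The trimmed mean of the signals was 500.003 on every array, so each array had been scaled to one target, which hides a change in total RNA. The series-wide table repeats these signals. The MAS5 version is not given in the sources used here.

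Signals were log2 transformed with no further normalization. The 22800 probe sets that were not controls and were Present on 2 or more arrays were fitted with limma 3.58.1 in R 4.3.3 (eBayes with a variance trend, no block, two-sided), with Benjamini-Hochberg adjustment over all of them. The sample titles place 1 array of each genotype in each of 2 experiments, so the experiment was also fitted as a replicate block. Same-numbered arrays had a correlation of 0.00460 between their deviations from the genotype means over the tested probe sets. The fit was run on simulated data with known differences added. That run checked the size of the estimates and the false calls, and not how often differences as small as those of the list are found. The brightest tested probe set stood for a gene in counts and medians. Symbols came from the platform annotation. Per-array values are given for the members with the largest differences shared by both experiments (up to 10 higher and 10 lower), the 5 with the largest gap between experiments and the brightest of each role. Per-array values of Phgdh, Asns and Arg1 are given outside these rules. From each wider list up to 4 genes per direction could be named, and Kynu, Aadat and Qprt were named outside this rule. A probe set Absent on both arrays of a genotype has only a bound, taken from the higher of its own and the array's lowest Present signal (12.4 to 15.4). The members and lists were chosen with earlier results of these data known. With 2 arrays a genotype an exact permutation test cannot go below p = 0.333, so none was used; the number of arrays limits precision.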

Additional observations from a re-analysis of the deposited data

How the results depend on the processing

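The list was refitted with quantile normalization, log2(signal + 50), a stricter and no detection filter, no variance trend and the series value table. Further refits averaged the probe sets within a gene, left out each array in turn, and took the experiment number as a block. Genes near the ceiling were also dropped without a refit. No gene of the list was among them, so that check could change nothing here. Of 464 alternative values over the 39 genes, 437 kept their direction and stayed short of the threshold. In many of these the direction could not change. The block, the variance trend and the detection filters do not alter the log2 difference of a probe set, and the series table repeats the signals. Averaging alters nothing for a gene with 1 tested probe set. The count is thus no measure of how steady the directions are. The counts of genes higher or lower in both experiments stayed within 1.5 times of 14 and 9. Genes past the threshold numbered 0 in the fit reported and 0 to 1 with an array left out. With the replicate block 1 gene passed, Hao1, at -1.23 (adjusted p = 0.0254), and over all 11656 genes 8 were higher and 15 lower. Beyond Hao1 and, in the wider lists, Pdk4, the block changed no other call of these lists. With an array left out, Hao1 ran from -1.74 to -0.71 and the median of the list from -0.03 to 0.12.

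The direction turned for 17 genes in some alternative, and none of those values passed. With an array left out the log2 difference ran from -0.74 to 2.59 for Pck1, -1.26 to 1.52 for G6pc, -0.19 to 0.0264 for Fbp1, -0.0597 to 0.31 for Slc37a4, -0.18 to 0.50 for Cps1, -0.32 to 0.0802 for Otc, -0.36 to 0.44 for Ass1, -0.27 to 0.49 for Arg1, -0.16 to 0.16 for Nags, and -0.81 to 0.0274 for Haao. It ran from -0.0293 to 0.52 for Got1, -0.00579 to 0.19 for Gpt2, -0.22 to 0.0698 for Mat1a, -0.60 to 0.0649 for Agxt, -0.0200 to 0.13 for Gldc, -0.22 to 0.30 for Bckdha and -0.21 to 0.0578 for Bckdhb. Quantile normalization gave -0.0117 for Nags, and averaging the probe sets gave -0.13 for Gpt2. The cause was not tested. Pck1, G6pc and Tdo2, each with an Absent call, had the largest standard errors. With the experiment as a block the standard errors were 0.64 for Pck1, 0.33 for G6pc and 0.59 for Tdo2.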
